A study of Rattus norvegicus with 8 samples.

Results

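Enteric glial cells (EGCs) treated with THC before lipopolysaccharide (LPS) were compared directly with EGCs treated with the THC metabolite THC-COOH before LPS. The 4 libraries of these groups, 2 each, were taken by their labels from the 8 libraries of the series. The THC + LPS cells received 0.1 µg/mL THC for 1 h and then LPS, and the THC-COOH + LPS cells received 10 nM THC-COOH for 1 h and then LPS. The remaining libraries, 2 of LPS alone and 2 of untreated Control cells, served to place the levels of the genes that differed. LPS of E. coli 0111:B4 was given at 1 µg/mL in the 3 groups that carry it, for 24 h according to the labels. The study's own text gives a shorter time for the sequenced cells in one place, so the length of the LPS treatment is uncertain. All cells were of the rat line EGC/PK060399egfr, so a single immortal line stands for enteric glia. The cannabinoids were dissolved in ethanol, and whether LPS and Control cells also received ethanol is not given in the sources used here. RNA was measured by MARS-seq on bulk cells, a method that counts the 3' ends of polyadenylated transcripts.

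Enteric glia surround the neurons of the gut wall and respond to bacterial LPS, which is sensed by the receptor TLR4 and turns on NF-κB target genes. THC, the main psychoactive compound of Cannabis sativa, binds the cannabinoid receptors CB1 and CB2. The liver oxidizes it in steps to THC-COOH, which is not psychoactive and carries a carboxyl group where THC has a methyl group. The doses were not matched. The THC dose corresponds to 318 nM, which is 31.8 times that of THC-COOH, so that structure and dose cannot be told apart. In bulk RNA, fewer cells of a type and less RNA per cell cannot be told apart either.

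Genes carry Ensembl identifiers in the count table, and 0 of 47357 rat genes in the annotation used here list such an identifier of the table. No gene function, promoter sequence or glial marker can therefore be given for these data. At most 2 genes per direction are named by identifier. The others are numbered within their direction by p, so that "lower gene 3" is the third of the genes that were lower with THC. The libraries held 1559935 and 715865 counts in THC + LPS, 1024351 and 930411 in THC-COOH + LPS, 879029 and 545779 in LPS, and 752742 and 778832 in Control. Levels are given in CPM, counts relative to the TMM-scaled library size. Nothing in the labels says that the 2 libraries of a group are separate cultures, so the p-values measure only the spread between these samples, which may be technical.

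Of 7875 genes tested, 18 (0.229%) were differentially expressed (DEGs) between THC + LPS and THC-COOH + LPS, at an adjusted p under 0.05 and a fold change above 1.6 in edgeR. With THC, 15 genes (0.190%) were lower, by 1.63- to 14.3-fold, and 3 genes (0.0381%) were higher. The 15 lower genes had a median log2 fold change of −1.47, and the median over all genes tested was 0.00. In all 15, both THC libraries lay below both THC-COOH libraries, as they did in 1542 of the 7875 genes tested. These 15 were chosen for being lower with THC, so both results describe the choice. The libraries of the pretreatments lay apart, in either direction, in 39.5% of all genes tested. The number of DEGs depends on THC library 1, the most deeply sequenced one: without it 1 DEG was left. It was 9 without THC library 2 or THC-COOH library 2, and DESeq2 called 4 genes, all among the 18.

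**Figure D1:**
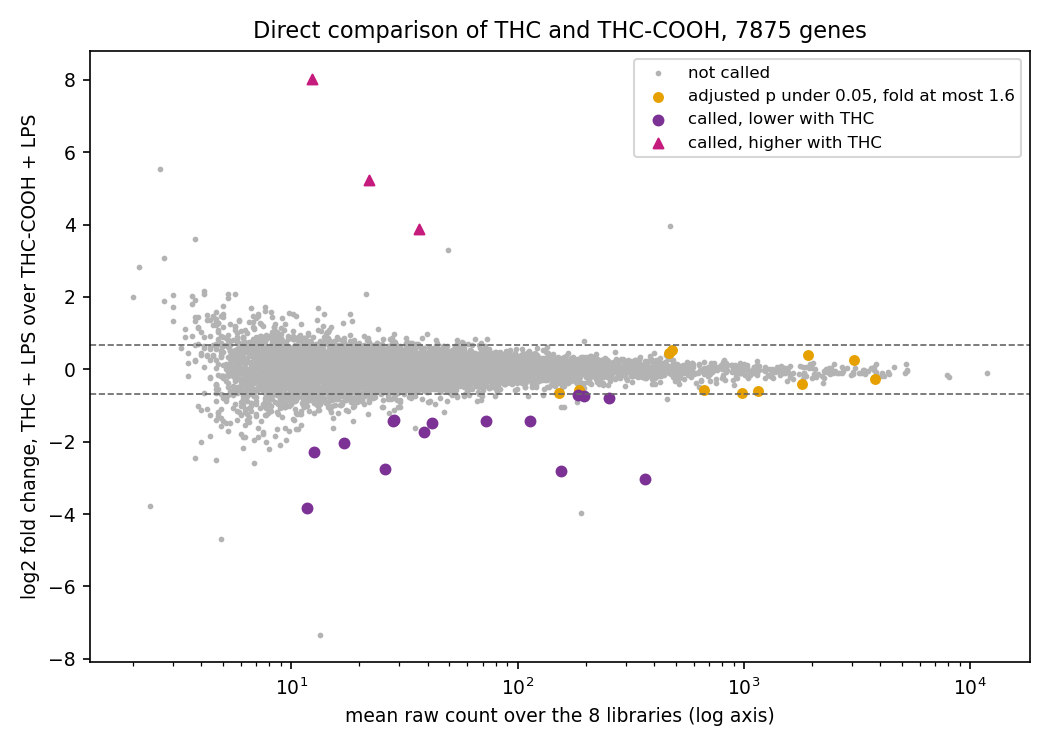
Log2 fold change of THC + LPS over THC-COOH + LPS (vertical axis) against the mean raw count of the 8 libraries (log axis), 1 point per gene tested; dashed lines mark a 1.6-fold change. The 15 called lower genes lie below the lower line at mean counts from 11.8 to 366, and the 11 genes with a small fold that passed the adjusted p lie at mean counts from 153 to 3790.

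The difference with the smallest p was that of ENSRNOG00000047737, which was higher with THC. It had 64.7 and 40.1 CPM in THC + LPS, against 3.93 and 3.29 CPM in THC-COOH + LPS. Its level was 10.2 and 5.57 CPM in LPS and 106 and 83.1 CPM in Control. The pretreatments did not overlap, and both THC-COOH libraries lay below both LPS libraries. The raw counts were 4 and 3 with THC-COOH and 9 and 3 in LPS. This limits the precision of the fold, and the order of THC-COOH and LPS is uncertain. With THC relative to THC-COOH the log2 fold change was 3.87 (standard error 0.41, 95% interval 3.02 to 4.73, adjusted p = 8.93e-06 in edgeR). The comparisons with LPS and Control share libraries with each other. Those of the pretreatments also reuse libraries by which this gene was chosen, so their p-values are not a separate result. Relative to Control, the log2 fold change was −4.65 with THC-COOH (adjusted p = 1.47e-07), −3.47 with LPS alone (adjusted p = 1.04e-05) and −0.78 with THC (adjusted p = 0.567, all in edgeR). Relative to LPS it was 2.69 with THC (adjusted p = 0.00114) and −1.18 with THC-COOH (adjusted p = 0.766). This gene was the only one of the 18 that was called whichever library was left out, with log2 fold changes from 3.41 to 4.10.

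The other 2 higher genes rested on a single library. Higher gene 2 had 168 and 2 raw counts in THC + LPS, against 1 and 2 in THC-COOH + LPS, 0 and 0 in LPS, and 2 and 1 in Control. Higher gene 3 had 98 and 0 raw counts in THC + LPS, against 0 and 0 in THC-COOH + LPS, 1 and 0 in LPS, and 0 and 0 in Control. In both genes only THC library 1 was high, and no fold change is given for them. Of the 2 higher genes that DESeq2 called, 1 was ENSRNOG00000047737 and the other was among these. Genes with over 90% of their summed CPM in 1 library, and at least 50 counts there, numbered 2 for THC library 1, 1 for Control library 1 and 0 for each of the others.

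Among the lower genes, ENSRNOG00000010807 had the smallest p. It had 37.1 and 55.4 CPM in THC + LPS, against 254 and 359 CPM in THC-COOH + LPS. Its levels elsewhere were 172 and 44.5 CPM in LPS and 284 and 222 CPM in Control. The THC libraries were thus low, the THC-COOH and Control libraries were high, and the LPS libraries fell on either side. With THC relative to THC-COOH the log2 fold change was −2.80 (standard error 0.30, 95% interval −3.42 to −2.18, adjusted p = 8.93e-06 in edgeR). ENSRNOG00000026716 showed the same order of groups, with 68.5 and 126 CPM in THC + LPS, against 560 and 932 CPM in THC-COOH + LPS. It had 435 and 106 CPM in LPS and 722 and 433 CPM in Control. The log2 fold change of this gene came to −3.03 (standard error 0.36, 95% interval −3.77 to −2.28, adjusted p = 3.79e-05 in edgeR). Neither call was kept by DESeq2, with an adjusted p of 0.0632 for ENSRNOG00000010807 and 0.127 for ENSRNOG00000026716, or without THC library 1, where the adjusted p of each was 0.0707 in edgeR. The log2 fold changes were then −2.73 and −2.94 in DESeq2, and −2.46 and −2.57 without THC library 1.

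**Figure D2:**
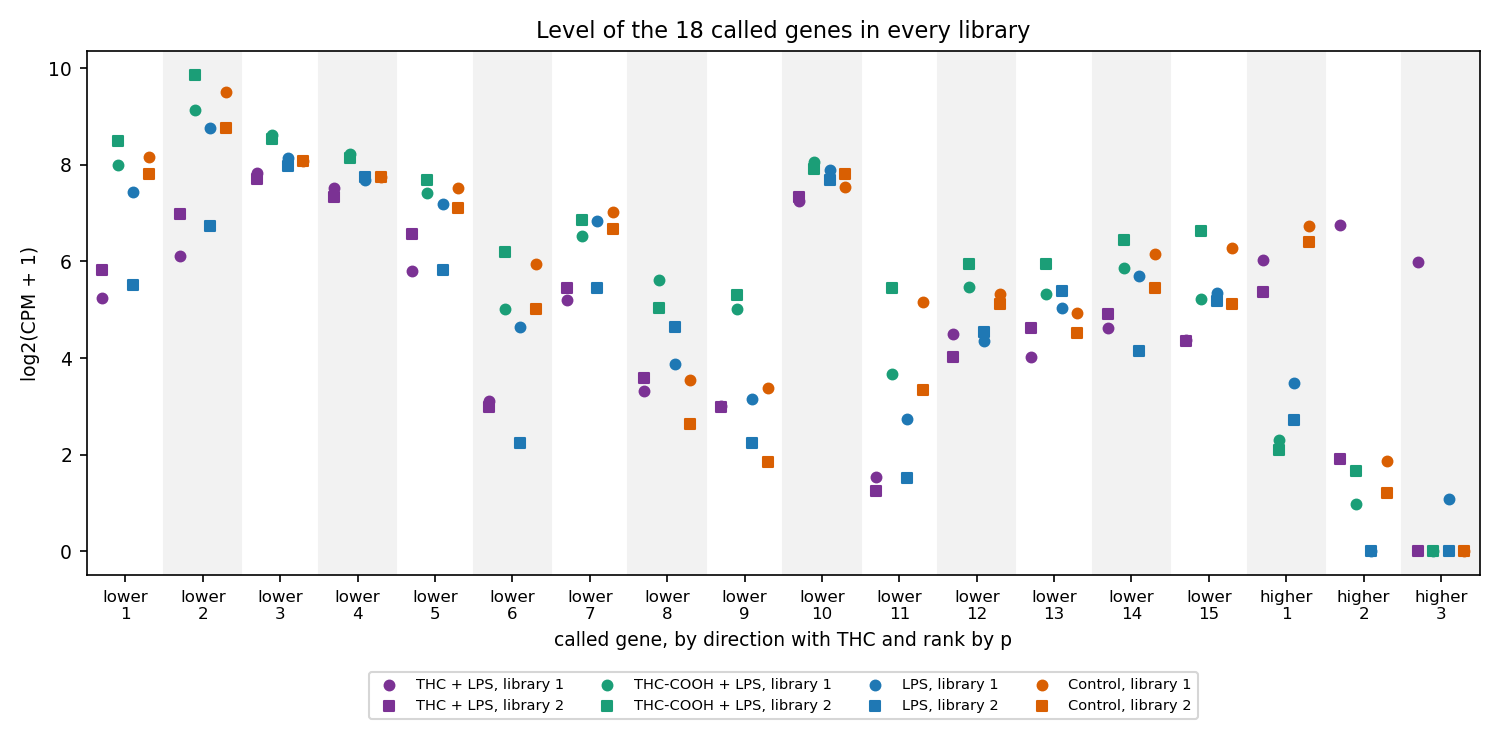
Level of the 18 called genes as log2(CPM + 1) in each of the 8 libraries, with lower genes 1 to 15 and then higher genes 1 to 3 along the horizontal axis; colours mark the groups, circles library 1 and squares library 2. ENSRNOG00000010807 and ENSRNOG00000026716 are lower genes 1 and 2, ENSRNOG00000047737 is higher gene 1, and higher genes 2 and 3 stand out in THC library 1 alone.

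The fold changes of the other lower genes fell into small and large ones. Lower genes 3, 4 and 10 were well counted and tight, and differed by 1.73-, 1.66- and 1.63-fold. Lower gene 3 had 228 and 209 CPM in THC + LPS, against 391 and 367 CPM in THC-COOH + LPS, with 281 and 252 CPM in LPS and 268 and 270 CPM in Control. Lower gene 4 had 183 and 159 CPM in THC + LPS, against 296 and 280 CPM in THC-COOH + LPS, with 203 and 213 CPM in LPS and 213 and 214 CPM in Control. In both genes LPS and Control lay close together, above both THC libraries and below both THC-COOH libraries. Lower gene 10 had 151 and 161 CPM in THC + LPS, against 264 and 241 CPM in THC-COOH + LPS, with 238 and 204 CPM in LPS and 186 and 225 CPM in Control. Their adjusted p-values were 0.00141, 0.00612 and 0.0149 in edgeR, and the folds of genes 4 and 10 lie so near 1.6 that without 1 library of this comparison the log2 fold change could drop below the threshold of 0.68 (to −0.65 and −0.64).

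Lower genes 8 and 9 were highest with THC-COOH. Gene 9 was low in the other 3 groups, while in gene 8 LPS lay between THC-COOH and the rest. Lower gene 8 had 8.97 and 11.1 CPM in THC + LPS, against 48.2 and 31.8 CPM in THC-COOH + LPS. It had 13.6 and 24.1 CPM in LPS and 10.7 and 5.20 CPM in Control. Lower gene 9 had 7.04 and 6.92 CPM in THC + LPS, against 31.5 and 38.4 CPM in THC-COOH + LPS. It had 7.96 and 3.71 CPM in LPS and 9.39 and 2.60 CPM in Control. In both genes each THC-COOH library was above every library of the other groups, as was also so in lower genes 3, 4, 10 and 12. Both were DEGs of THC-COOH + LPS relative to Control, with log2 fold changes of 2.32 and 2.52 (adjusted p = 0.0188 and 0.0274 in edgeR), and neither was a DEG relative to LPS, at 1.16 and 2.44 (adjusted p = 0.523 and 0.122). Of the 7875 genes tested, 6 were DEGs of THC-COOH + LPS relative to Control and 0 relative to LPS. The same THC-COOH libraries served to choose these genes, so the p-values are biased by the choice and give no separate result. The raw counts of gene 9 outside THC-COOH were between 2 and 11, so its levels there are known only roughly.

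Lower genes 1, 2 and 7 were the DEGs among the 15 that were lower with THC than in Control. Over all 7875 genes tested, 4 were DEGs of THC + LPS relative to Control. For lower gene 7 the levels were 35.9 and 42.9 CPM in THC + LPS, against 91.4 and 115 CPM in THC-COOH + LPS. It had 113 and 42.7 CPM in LPS and 129 and 101 CPM in Control. Both THC-COOH libraries thus lay among the Control values or just under them, and LPS library 2 lay at the THC level. Relative to Control, the log2 fold changes with THC were −2.53, −2.66 and −1.58 for genes 1, 2 and 7 (adjusted p = 0.000211, 0.000693 and 0.0109 in edgeR), and with THC-COOH 0.27, 0.37 and −0.16 (adjusted p = 0.823, 0.795 and 0.904). Relative to LPS they were −1.43, −1.65 and −1.12 with THC, and none of the 3 was a DEG there, as 2 of the 7875 genes tested were. The genes were chosen for low THC libraries, and these comparisons use the same libraries. Their p-values are therefore biased by the choice and give no separate result.

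The remaining 7 lower genes (5, 6 and 11 to 15) differed by 2.64- to 14.3-fold. Lower gene 5, the best counted of them, had 55.1 and 94.1 CPM in THC + LPS, against 170 and 204 CPM in THC-COOH + LPS. It had 144 and 55.7 CPM in LPS and 182 and 136 CPM in Control. Lower gene 11 had the largest fold and the fewest counts among the 15. It had 3 and 1 raw counts in THC + LPS, against 12 and 39 in THC-COOH + LPS, with 5 and 1 in LPS and 26 and 7 in Control. Its log2 fold change of −3.84 has a 95% interval from −5.44 to −2.23. In lower genes 6, 11 and 15 the 2 THC-COOH libraries themselves were over 2-fold apart in CPM + 1, with library 2 the higher one.

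In each of the 15 lower genes the mean of THC + LPS was below that of THC-COOH + LPS by choice, and the LPS and Control libraries placed these levels. The LPS mean lay between those of the pretreatments in 14 of 15 genes, and the Control mean in 12. Over all genes tested, LPS lay between them in 34.1% and Control in 34.8%. Both means lay between them in 12 of the 15 genes and in 17.1% of all genes tested. Genes chosen for a large difference leave more room between the groups, so these shares are a description. The order THC + LPS, LPS, Control, THC-COOH + LPS, low to high, was that of 10 of the 15 genes. On the log2 scale LPS was nearer to THC in 10 genes, and Control was nearer to THC-COOH in 10 genes. For this order and this nearness the shares over all genes tested are not given here, so the counts only describe the 15 genes.

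Library by library this placement was less clear. Both LPS libraries were above both THC libraries in 6 of 15 genes, and below both THC-COOH libraries in 12. Both Control libraries were above both THC libraries in 12 genes, and below both THC-COOH libraries in 7. Apart from both pretreatments at once were LPS in 4 genes and Control in 4 genes. The matching shares over all genes tested were not computed, so these counts only describe the 15 genes. On the scale of CPM + 1, the LPS libraries were over 2-fold apart in 7 of the 15 (lower genes 1, 2, 5, 6, 7, 11 and 14) and in 8.46% of all genes tested. LPS library 1 was the higher one in each of the 7. Among the 15 genes, library 1 was above library 2 in 7 in THC + LPS, 4 in THC-COOH + LPS, 11 in LPS and 12 in Control. Over all genes tested this share was 49.8% to 50.9% in the 4 groups, so the 15 genes tended to shift together between the libraries of a group in all but THC + LPS. The median absolute difference between the libraries of a group in the 15 genes was 0.28 in THC + LPS, 0.50 in THC-COOH + LPS, 0.93 in LPS and 0.42 in Control (log2 of CPM + 1). Over all genes tested it was 0.23, 0.24, 0.27 and 0.26 in the same order. LPS library 2 was also the shallowest library, and the part of depth in this was not tested.

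**Figure D3:**
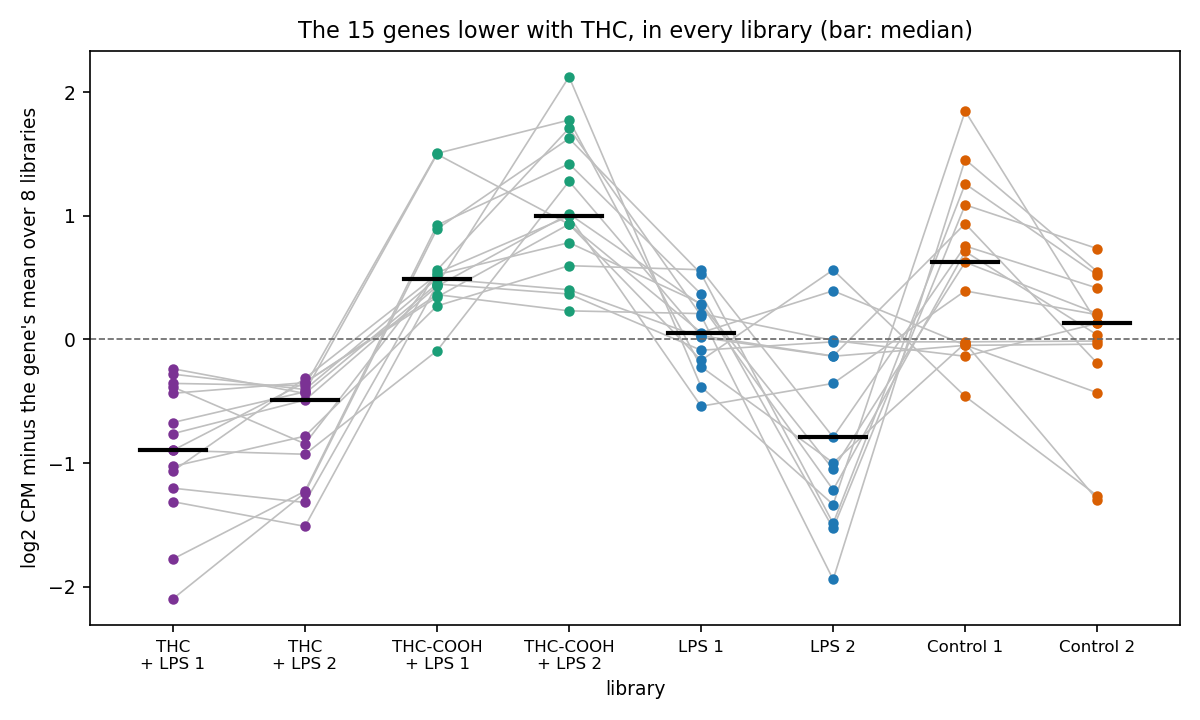
Log2 CPM (prior count of 2) of the 15 lower genes minus each gene's mean over the 8 libraries (vertical axis), by library; grey lines join the values of 1 gene and black bars are medians. The medians are −0.90 and −0.49 in THC + LPS, 0.49 and 1.00 in THC-COOH + LPS, 0.05 and −0.79 in LPS, and 0.62 and 0.13 in Control, so that the median of LPS library 2 lies between those of the THC libraries.

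A further 11 genes passed the adjusted p but had a fold change of at most 1.6. They were abundant, with mean counts from 153 to 3790, and their absolute log2 fold changes ran from 0.26 to 0.64. With THC 7 were lower and 4 were higher. The pretreatments did not overlap in any of the 11, nor in 39.5% of all genes tested. The one with the smallest p had 1011 and 1092 CPM in THC + LPS, against 1532 and 1640 CPM in THC-COOH + LPS, with 1325 and 1245 CPM in LPS and 1234 and 1429 CPM in Control. It differed by −0.60 on the log2 scale (standard error 0.08, adjusted p = 0.000407 in edgeR). The tightest of the higher ones had 3631 and 3700 CPM in THC + LPS, against 3023 and 3045 CPM in THC-COOH + LPS, with 3250 and 3232 CPM in LPS and 3801 and 3651 CPM in Control. It differed by 0.27 on the log2 scale (standard error 0.06, adjusted p = 0.0221 in edgeR). The LPS mean lay between the pretreatments in 11 of the 11 genes, and the Control mean in 7. Over all genes tested the shares were 34.1% for LPS and 34.8% for Control. The 11 were chosen by p in this comparison, so their placement is a description. In 3 of the 4 genes higher with THC, the Control mean was above both pretreatments.

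**Figure D4:**
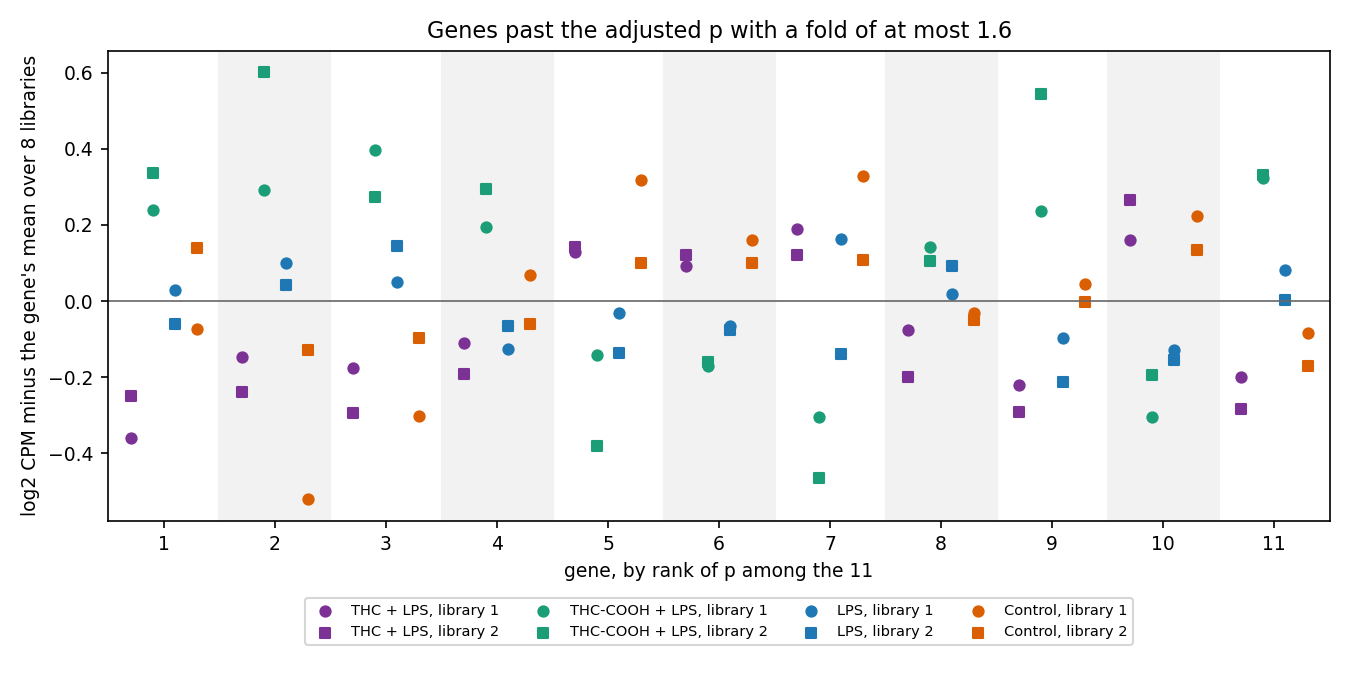
Log2 CPM minus the gene's mean over the 8 libraries (vertical axis) for the 11 genes with an adjusted p under 0.05 and a fold of at most 1.6, by rank of p; colours mark groups, circles library 1 and squares library 2. Genes 5, 6, 7 and 10 are higher with THC and the other 7 lower. The LPS means lie between the pretreatments in all 11, which were chosen by p in this comparison.

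Large folds without a call were also found among well counted genes, those with a mean count of at least 50. Of 3131 such genes, 35 differed by over 1.6-fold, 11 higher and 24 lower with THC, and of these 7 lower ones were DEGs. The largest difference of the remaining 28 that did not rest on a single library was in a gene with 2336 and 33 raw counts in THC + LPS, against 46 and 54 in THC-COOH + LPS. It had 36 and 24 raw counts in LPS and 37 and 1192 in Control, so 2 libraries of different groups were high. The log2 fold change reached 3.95 (standard error 0.98, adjusted p = 0.0944 in edgeR), and it is described here because of these values. The 5 genes past the minimum fold with the next smallest p had adjusted p-values from 0.0606 to 0.0610, of which 4 were lower with THC.

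For most well counted genes the data limit the difference between these samples of the pretreatments. The intervals rest on the same spread as the p-values, which may be technical. The median absolute log2 fold change was 0.20 over all genes tested and 0.13 in the well counted ones, of which 2510 (80.2%) differed by less than 1.2-fold. The 95% interval of the difference lay within 1.6-fold in either direction in 259 of 263 genes with a mean count of 500 or more (98.5%). It did so in 97.3% of genes with 200 to 500 counts, in 92.4% with 100 to 200, and in 75.5% with 50 to 100. With 20 to 50 counts the share was 25.6%, and below 20 counts it was 0.0425%, or 1 gene of 2355. The median half-width of the interval was 0.17 in the highest of these classes and 1.02 in the lowest, on the log2 scale. For most genes with a mean count under 50, the fit over all 8 libraries thus did not limit the difference to 1.6-fold. Of the 18 DEGs, 4 had a mean count under 20 and 7 had between 20 and 50. With an unadjusted p under 0.05 there were 694 genes, 299 higher and 395 lower with THC, where 5% of the tests would be 394.

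Across the well counted genes as a whole, libraries of different pretreatments differed by more than the replicates of either one, and by no more than the 2 Control libraries. The standard deviation over genes of the log2 difference between 2 libraries was 0.253 within THC + LPS and 0.248 within THC-COOH + LPS. Between a THC and a THC-COOH library it ran from 0.278 to 0.314 in the 4 pairs. It was 0.303 between the LPS libraries and 0.327 between the Control libraries, above the values of 3 and of all 4 of these pairs. After subtraction of the variance that counting alone gives, the values were 0.161 within THC + LPS, 0.152 within THC-COOH + LPS, 0.216 to 0.228 between them, 0.189 within LPS and 0.242 within Control. These are descriptions of single pairs, and with 2 libraries a group the smallest two-sided p of an exact permutation test is 0.333.

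The calls were followed through the loss of each library. With THC library 1 left out, 0 of the 15 lower genes were called, although their median log2 fold change was −1.75 and the smallest adjusted p among them was 0.0707. With THC library 2 left out, 3 were called (lower genes 1, 2 and 5), at a median of −1.73. Without THC-COOH library 1 there were 11, and without THC-COOH library 2 there were 5, at medians of −1.71 and −1.25. The loss of LPS library 1 or 2 left 14 or 13, and the loss of either Control library left all 15. Lower genes 9 and 10 lost their call without any 1 of the 4 libraries compared. Lower genes 13 and 15 also lost it without LPS library 2, and gene 15 without LPS library 1, although neither library belongs to the groups compared. With a library removed, the lone library of its group was taken to vary like the other groups.

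**Figure D5:**
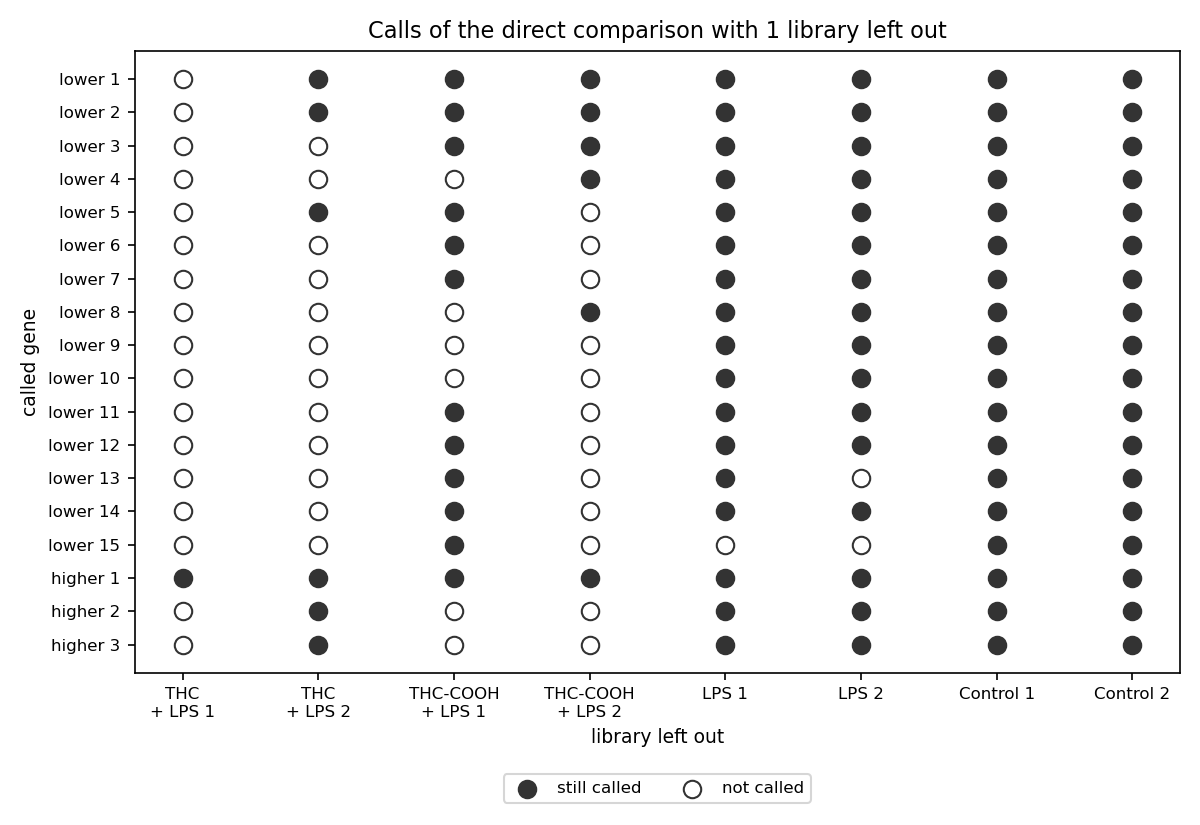
Calls of the 18 genes (rows) in THC + LPS against THC-COOH + LPS with 1 library left out (columns); filled circles are genes still called and open circles genes no longer called. The column of THC library 1 holds 1 filled circle, that of ENSRNOG00000047737 (higher gene 1), and the columns of the Control libraries hold 18 each.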

How the data were processed

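EGCs were sequenced in 8 libraries, 2 in each of 4 groups. The submitters' processing notes name STAR 2.7.3a, HTSeq, bcl2fastq 2.20.0.422 and cutadapt, with Rnor_6.0 as the genome build. The deposited raw counts per Ensembl gene were used as they stand, and a deposited table of normalized values was not used here. Of 9848 genes, 7875 were tested, each of which exceeded a raw count of 10 in 1 library or more. The fit was edgeR 4.0.16 (R 4.3.3) with TMM, quasi-likelihood and 1 coefficient per group over all 8 libraries (4 residual degrees of freedom, common biological coefficient of variation 0.0904). The tests and intervals also used 19.7 prior degrees of freedom, drawn from the spread of all genes tested. P-values were adjusted by Benjamini-Hochberg over all genes tested. The thresholds were those of the study's methods. Standard errors were derived from F, as the size of the log2 fold change over its square root. Genes with an F of almost 0 have no interval.

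Called genes were named by the smallest p in each direction, at most 2, leaving out the genes of a single library. Gene lists could not be applied, since identifiers were not paired with symbols. The comparison and its lists were chosen with earlier results of these data known. The alternatives were DESeq2 size factors, filterByExpr, every gene with a count, DESeq2 1.42.0, limma voom (limma 3.58.1), the 4 libraries alone, a block for the replicate number, changed thresholds, and the removal of each library with the genes tested kept. The replicate libraries differed by more than sampling noise in each group (chi-square per degree of freedom from 1.60 to 1.95). The molar dose of THC was computed from atomic weights in rdkit, and figures were drawn with matplotlib 3.10.9.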

Additional observations from a re-analysis of the deposited data

How the results depend on the processing

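DESeq2 size factors gave 18 DEGs (3 higher and 15 lower with THC), with all 18 shared, and filterByExpr gave 23, of which 16 were shared. With every gene that had a count there were 30 (7 higher, 23 lower), and all 18 were among them. DESeq2 gave 4 (2 higher, 2 lower), including a higher gene that rested on THC library 1 alone. Limma voom gave 17, of which 14 were shared, with 1 higher. The 4 libraries alone gave 26, of which 5 were higher. Without a minimum fold there were 29, with 7 higher, and the minimum fold with p not adjusted gave 270 (103 higher, 167 lower), since fewer criteria apply. Without genes of a single library there were 16, with 1 higher. Apart from the thresholds, the cause was not tested. Removal of 1 library at a time gave 1 to 24 DEGs, 1 to 5 of them higher and 0 to 19 lower. In none of these settings did the log2 fold change of the 3 named genes change sign. Their THC and THC-COOH libraries did not overlap, so a change of sign was hardly possible in these settings.

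In the fit with a replicate block, 30 genes were called (5 higher, 25 lower), with all 18 shared. The numbers do not pair the libraries: deviations of same-numbered libraries from their group means correlated by −0.0858 to 0.103 over the 6 pairs of groups, across genes, and by −0.0126 between THC + LPS and THC-COOH + LPS.

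The intervals were widest below a mean count of 50, where 4744 of the genes tested lie. How far depth and the number of libraries each set this width was not tested.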
